A study of Mus musculus with 9 samples.

Results

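The genes described here are 10 chaperones and targets of the transcription factors XBP1 and ATF6 in the endoplasmic reticulum (ER): Hspa5, Hsp90b1, Calr, Pdia4, Creld2, Xbp1, Dnajb9, Sdf2l1, Edem1 and Herpud1. They were found by gene name in a table of FPKM values (fragments scaled to exon length in kilobases and to the fragments mapped) that held 47729 genes, and all 10 were present and passed the filter on low values. The question was whether the branches of the unfolded protein response outside ATF4 changed on induction of E2A homodimers.

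The RNA came from a doxycycline (dox)-inducible line of mouse ESCs, which are pluripotent cells of the early embryo, kept in medium with LIF and serum. All 9 libraries carried the same transgene, in which 1 E47 protein is joined by a linker to another to force an E2A homodimer, inserted upstream of Hprt. The groups were cells without dox (0 h) and cells after 18 h or 24 h of dox at 1 µg/ml, with 3 replicates each that a legend of the study calls biological experiments. The titles and treatment entries gave 18 h and 24 h, and these were used. The treatment text in the labels instead speaks of 24 h and a longer time. Dox-treated cells without the transgene were not analysed here, so effects of dox, of time in culture and of the transgene cannot be told apart.

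When unfolded proteins build up in the ER, 3 sensors in its membrane respond. IRE1 removes a short intron from the Xbp1 transcript so that an active XBP1 is made, ATF6 is cut in the Golgi to release a transcription factor, and PERK phosphorylates eIF2α, which favours translation of ATF4. XBP1 and ATF6 switch on chaperones, enzymes that form disulphide bonds and the machinery for ER-associated degradation (ERAD), whereas ATF4 acts on amino acid synthesis and stress genes and is also reached by kinases outside the ER. ESCs express the abundant ER chaperones without added stress.

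Libraries held 22028363 to 26471569 reads on genes, and the members drew between 217 reads (Dnajb9) and 25627 reads (Hsp90b1) in a library. Tcf3, which encodes E2A and on which transgene reads can count, had a mean of 39.1±1.80 FPKM (s.d., n=3) without dox, 110±5.52 after 18 h and 102±7.55 after 24 h. The 8 ESC markers, led by Dppa5a and Pou5f1, had summed levels of 1300 to 1970 FPKM without dox, 1020 to 1610 after 18 h and 974 to 1590 after 24 h, while among them Nanog was at 34.5 to 45.1 FPKM at 0 h and higher, at 64.1 to 78.8, at 24 h. Cells with an enlarged ER were looked for through markers. The 10 markers of extraembryonic endoderm summed to 24.2 to 26.7 FPKM at 0 h, 26.8 to 28.8 at 18 h and 28.4 to 29.0 at 24 h, almost all from Lamb1 and Dab2, and the other 8 did not exceed 0.871 FPKM in any library, Gata6 being at most 0.493 and Sox17, Sox7, Gata4, Foxa2 and Afp at most 0.258. The 5 plasma cell markers summed to 14 to 15.5, 16.3 to 17.4 and 15.4 to 16.8 FPKM, mostly from Sdc1, with Prdm1 at 1.56 to 3.17, Mzb1 at 0.417 to 1.35, and Jchain and Irf4 at or below 0.0548. The 6 trophoblast markers summed to 165 to 193, 404 to 485 and 364 to 493 FPKM, mostly from Krt8. The trophoblast factor Hand1 was at 0.806 to 1.56 FPKM at 0 h, 7.56 to 10.1 at 18 h and 11.1 to 12.5 at 24 h, and Cdx2 at 0.241 to 0.671, 1.78 to 2.40 and 2.82 to 4.17, so that the dox libraries of both were above all 0 h libraries, whereas Elf5 was at or below 0.0357 throughout. The 6 neural plate markers, mostly Nes, summed to 29.3 to 43.6, 43.8 to 60.8 and 38.8 to 58.8 FPKM, and from 0 h to 24 h Sox1 went from 0.208 to 0.552 up to 1.47 to 3.28 and Foxd4 from at most 0.0711 up to 0.987 to 2.06. The 7 fibroblast markers summed to 6.99 to 14.7, 6.04 to 10.3 and 6.10 to 10.7 FPKM. The part of these genes' cells in the results was not tested, and in bulk RNA fewer cells of a type and less RNA per cell cannot be told apart.

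The promoters are shown because ATF6 and XBP1 are known to act through the ER stress response element (ERSE), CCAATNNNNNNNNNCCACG, and the related ERSE-II, ATTGGNCCACG. Windows from 250 bases before to 50 after the RefSeq start (GRCm38.p6) were searched on both strands for these, for the XBP1 element TGACGTGG (UPRE), for the ATF4 element TGATGNAA and for the E-boxes CAGCTG and CACCTG, which E2A can bind. All 10 members had a window among 32851. In the sequences, written 5′ to 3′ on the strand of the gene, capitals mark the fixed letters of ERSE or ERSE-II on either strand and, in Herpud1, also the whole ATF4 element, which lies on the strand opposite to the gene.
Hspa5 (chr2:34771840-34772089, plus strand): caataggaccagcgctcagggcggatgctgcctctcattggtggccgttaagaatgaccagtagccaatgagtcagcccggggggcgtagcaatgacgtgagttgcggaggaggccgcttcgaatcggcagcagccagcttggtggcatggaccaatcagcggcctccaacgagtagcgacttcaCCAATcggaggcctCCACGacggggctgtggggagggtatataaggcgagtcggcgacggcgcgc
Hsp90b1 (chr10:86705525-86705664, minus strand): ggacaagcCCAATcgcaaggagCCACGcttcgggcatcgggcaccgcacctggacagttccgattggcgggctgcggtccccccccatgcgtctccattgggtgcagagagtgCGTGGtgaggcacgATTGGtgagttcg
Calr (chr8:84847062-84847101, minus strand): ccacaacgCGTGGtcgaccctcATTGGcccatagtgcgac
Creld2 (chr15:88819511-88819550, plus strand): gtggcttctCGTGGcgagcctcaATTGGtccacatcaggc
Herpud1 (chr8:94386179-94386428, plus strand): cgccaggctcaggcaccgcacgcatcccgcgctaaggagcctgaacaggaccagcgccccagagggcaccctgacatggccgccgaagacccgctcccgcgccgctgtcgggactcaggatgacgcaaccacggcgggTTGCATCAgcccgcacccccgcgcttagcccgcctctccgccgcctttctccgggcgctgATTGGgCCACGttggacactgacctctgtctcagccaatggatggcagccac

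An ERSE was present in 4 of the 10 members, in Hspa5 at -65 to -47 from the start, in Hsp90b1 at -212 to -194 and again at -107 to -89, in Calr at -162 to -144 and in Creld2 at -126 to -108. Of all windows, 0.119% held an ERSE, as did 6 of the 30 other ER folding and ERAD genes that had a window and 0 of 19 ATF4 branch genes. Herpud1 was the member with an ERSE-II, at -52 to -42, against 0.0365% of all windows. It was also the member with an ATF4 element, at -112 to -105, which 3.97% of all windows and 7 of the 19 ATF4 branch genes held. No member held the UPRE letters, found in 0.676% of windows. The E-box CAGCTG lay in the window of Calr (16.3% of all windows) and CACCTG in those of Hsp90b1, Xbp1 and Dnajb9 (20.2%). These motifs did not overlap each other in the members, and a match in letters is not evidence that a factor is bound. Only the exact letters were searched, with any base at N. A window without a match can therefore still hold a variant of an element.

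**Figure D1:**
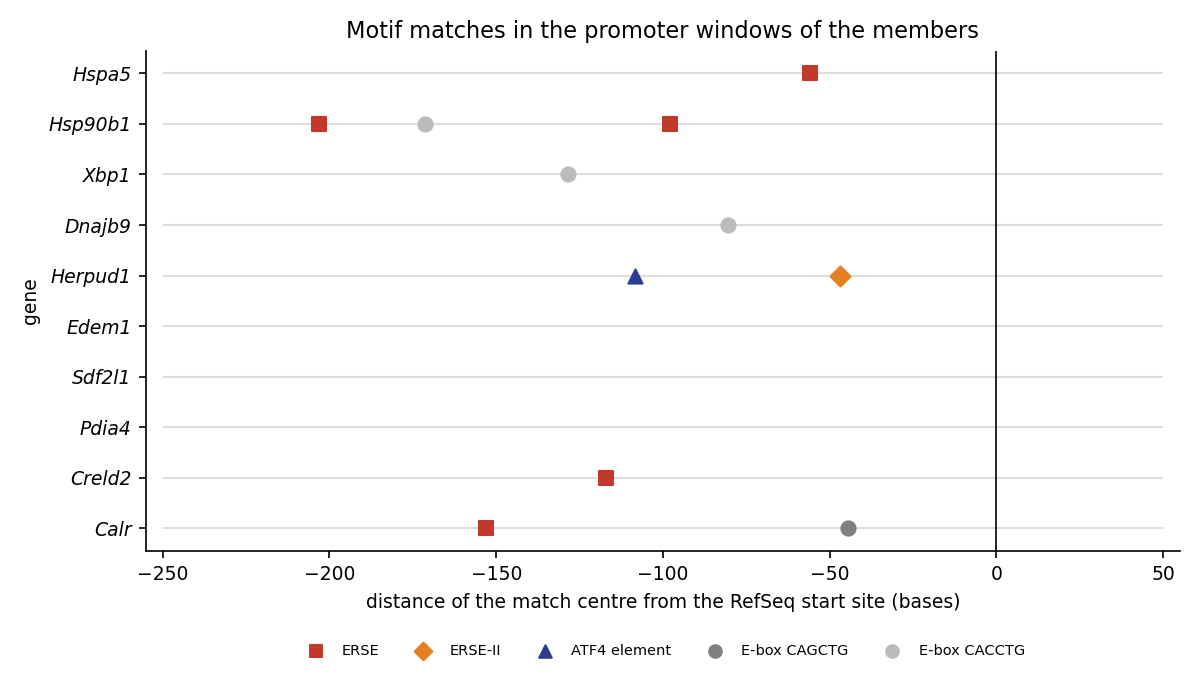
Positions of motif matches in the promoter window of each member, with the distance of the match centre from the RefSeq start site in bases on the x axis and a row for each gene. Red squares (ERSE) lie in 4 genes, and Herpud1 carries both an ERSE-II and an ATF4 element.

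Most members were higher at 24 h. In limma, with p adjusted over the 17951 genes tested, 6 of 10 rose at 24 h compared with 0 h (Hspa5, Calr, Pdia4, Xbp1, Sdf2l1 and Edem1) and 0 fell, against a background of 6.52% of all genes tested that rose and 5.11% that fell. At an unadjusted p under 0.05, 1 was lower (Herpud1), against 13.2% of all genes, and edgeR and DESeq2 called it as fallen, as they did 7.76% and 7.41% of the genes they were fitted to. As risen, each called 8 members, when 1585 of 15648 genes rose in edgeR and 1685 of 19210 in DESeq2. The 6 that rose in limma had log2 fold-changes, taken on log2(FPKM+0.1), from 0.42 to 0.90, so that 0 of 10 reached 1 while 2.07% of all genes rose by that much. The count of 6 was 3 (Xbp1, Sdf2l1 and Edem1) without 0 h replicate 1 or 3 or without any of the 24 h replicates, when 2.61% to 5.64% of all genes rose. The median over the 10 members was 0.45, and over all genes it was 0.00403. In 8 members every 24 h library was above every 0 h library, as was the case for 16.7% of all genes, and Herpud1 was lower without overlap, as were 14.6% of all genes. At 18 h, 0 members rose and 1 fell (Herpud1), against 4.27% and 3.72% of all genes. At an unadjusted p under 0.05, 4 were higher at 18 h, against 13.2% of all genes, and edgeR called 1 of them (Edem1, adjusted p=0.0450), against 7.41% of its genes that rose, and DESeq2 2 (Edem1 and Sdf2l1), against 6.72%. The median at 18 h was 0.20. Between 18 h and 24 h, 10 of 10 members had a log2 fold-change above 0, from 0.16 to 0.45, where 52.0% of all genes were above 0. Without 18 h replicate 3, this comparison gave 0.084 for Calr, down from 0.156, and 0.222 for Hspa5, down from 0.351. In limma 0 members passed that comparison, 7 were higher at an unadjusted p under 0.05, against 3.11% of all genes, and DESeq2 called 1 (Xbp1) as risen, against 0.172% of its genes, whereas 0.0223% of all genes passed in either direction in limma. All 3 libraries at 24 h were above all at 18 h for 7 members, against 6.81% of genes.

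**Figure D2:**
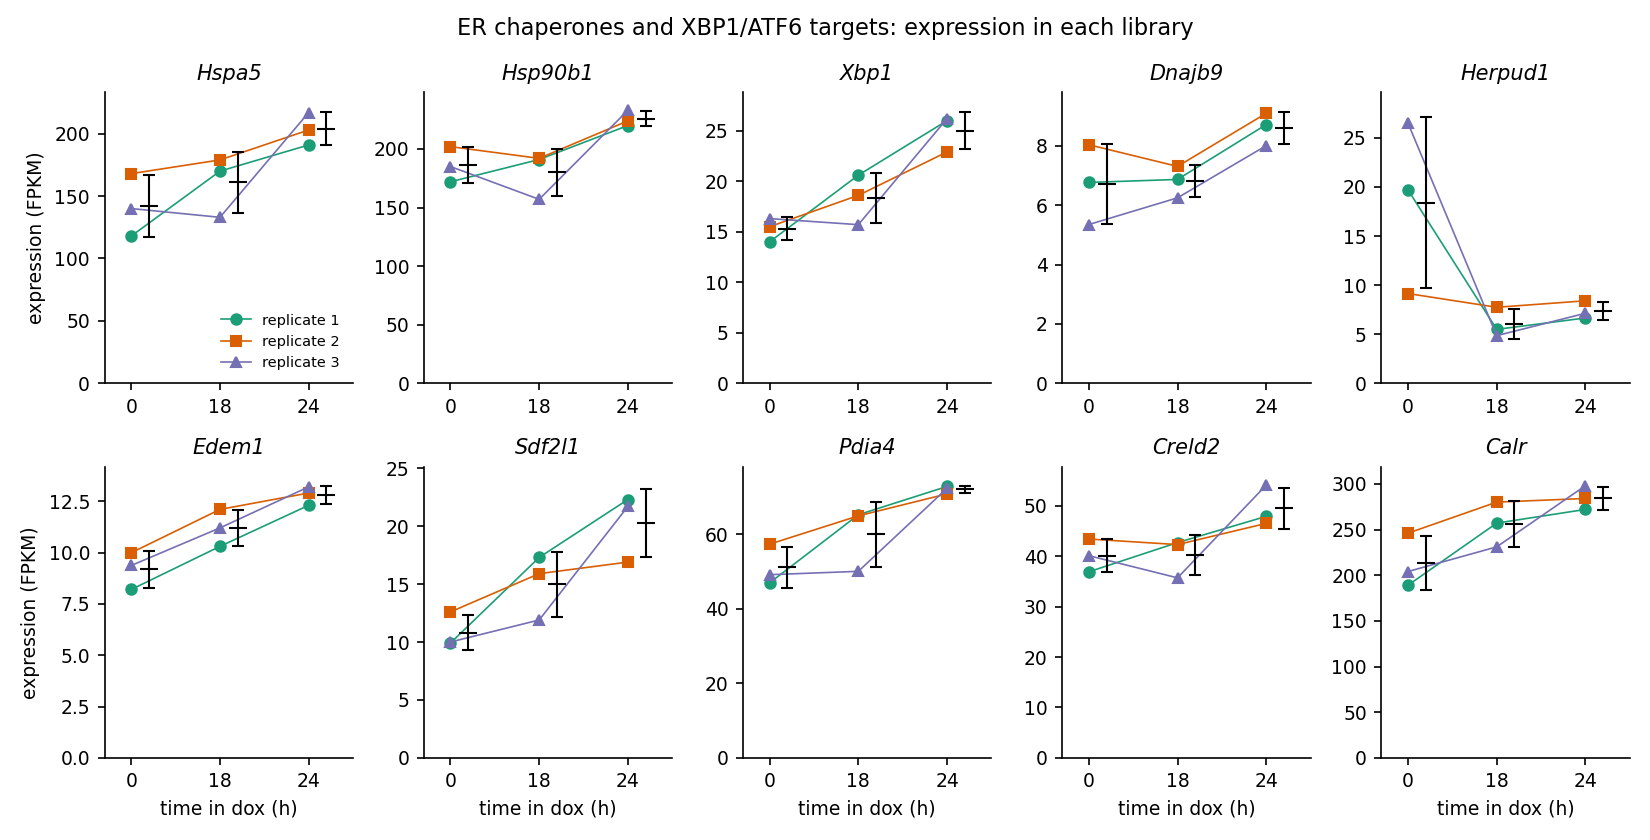
Expression of the 10 members in FPKM (y axis, from 0, own scale for each gene) against time in dox in hours (x axis), with coloured points for replicates 1 to 3 joined by number and black bars for the mean±s.d. of 3 libraries. For 8 genes all 24 h points lie above all 0 h points, and the 18 h library of replicate 3 is the lowest at its time point for 9 of 10 genes.

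The members largely shared the highest and the lowest replicate at 0 h, and at 18 h the lowest, which was another replicate. At 24 h they did not share the lowest. Replicate 2 was the highest 0 h library for 8 of 10 members and replicate 1 the lowest for 8. At 18 h, replicate 3 was the lowest for 9 members, while the highest was replicate 2 for 6 and replicate 1 for 4. At 24 h, replicate 3 was the highest for 6. The lowest 24 h library was replicate 1 for 5 members, replicate 2 for 4 and replicate 3 for 1. Without replicate 3 at 18 h, 0 members passed at 18 h, when 1.71% of all genes rose and 1.11% fell, and 7 rose at 24 h, against 4.81%. Over all genes, deviations from the group means correlated weakly to moderately between libraries of equal number (r of 0.211 to 0.548 in 9 pairs), so that fits with replicate as a block are given beside those without it. With the block, limma called 8 members as risen at 24 h, against 13.6% of all genes, and 1 at 18 h (Edem1), against 10.8%. With the block in edgeR, 9 members rose and Herpud1 fell at 24 h, against 20.1% and 18.8% of genes. At 18 h that fit called 5 as risen, against 17.4% of genes, with adjusted p of 0.000898 for Edem1, 0.00402 for Calr, 0.0146 for Sdf2l1, 0.0262 for Pdia4 and 0.0276 for Xbp1 in edgeR. In the same fit 2 members rose between 18 h and 24 h (Xbp1 and Hsp90b1), against 0.939% of genes.

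Hspa5 encodes BiP, the HSP70 chaperone of the ER lumen that also holds the sensors inactive (chr2:34771970-34777547, plus strand, GRCm38). Its FPKM was 118, 168 and 140 in replicates 1, 2 and 3 at 0 h, 170, 179 and 133 after 18 h, and 191, 203 and 217 after 24 h. All 24 h libraries were above the libraries of both other time points, and the 18 h libraries overlapped those of 0 h. For Hspa5 the log2 fold-change came to 0.53 at 24 h (95% confidence interval 0.22 to 0.85, limma adjusted p=0.0420), a 1.45-fold rise. At 18 h it was 0.18 (-0.14 to 0.50, adjusted p=0.462 in limma), with 0.0555 without 0 h replicate 1, 0.310 without 0 h replicate 2 and 0.312 without 18 h replicate 3. The 24 h call was close to the threshold. It was lost without any 1 of 7 libraries, with limma adjusted p of 0.125 and 0.0853 without 0 h replicates 1 and 3, 0.0534 and 0.0525 without 18 h replicates 1 and 2, and 0.0606, 0.114 and 0.135 without 24 h replicates 1, 2 and 3.

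Hsp90b1 encodes GRP94, the HSP90 of the ER (chr10:86690209-86705509, minus strand). It was at 172, 202 and 185 FPKM at 0 h, 191, 192 and 157 after 18 h, and 220, 224 and 233 after 24 h. The 24 h libraries were close to each other and above all others, whereas 0 h and 18 h overlapped. Its log2 fold-change at 24 h was 0.28 (0.08 to 0.48), with an adjusted p of 0.0743 in limma, 0.0438 in limma with the replicate block, 0.0489 in edgeR and 0.0442 in limma without 18 h replicate 3. That change passed in 6 of 22 alternative fits. Its limma adjusted p was 0.189 after median centring and 0.22 without 0 h replicate 1. At 18 h the log2 fold-change was -0.06 (-0.26 to 0.15, limma adjusted p=0.739). Between 18 h and 24 h it was 0.34, with an adjusted p of 0.756 in limma and 0.0175 in edgeR with the block. The gene overlaps 1810014B01Rik on the other strand, at 1.58 to 2.34 FPKM, and Gm15344, at 2.84 to 4.86 FPKM, and how the counting used strand is not given in the sources used here.

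Calr encodes calreticulin, the calcium-binding lectin chaperone that retains newly made glycoproteins (chr8:84841850-84846934, minus strand). It was the most abundant member, at 189, 246 and 204 FPKM at 0 h, 257, 280 and 231 after 18 h, and 272, 284 and 298 after 24 h. The 24 h libraries were above all 0 h libraries and overlapped those of 18 h. Its log2 fold-change was 0.42 at 24 h (0.19 to 0.66, limma adjusted p=0.0332) and 0.27 at 18 h (0.03 to 0.50, limma adjusted p=0.149). The 24 h call was lost without 0 h replicate 1 or 3 (limma adjusted p=0.107 and 0.0808) and without 24 h replicate 1, 2 or 3 (0.0522, 0.0954 and 0.111). Without 0 h replicate 2 Calr passed at 18 h (0.38, limma adjusted p=0.0388).

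Pdia4, a protein disulphide isomerase also known as ERp72 (chr6:47796141-47813430, minus strand), was at 47.0, 57.4 and 49.2 FPKM at 0 h, 65.3, 65.0 and 50.1 after 18 h, and 72.9, 70.9 and 72.4 after 24 h. The 24 h libraries were close to each other and above all others, and 18 h replicate 3 stayed within the range of 0 h. For Pdia4 this gave a log2 fold-change of 0.50 at 24 h (0.25 to 0.74, limma adjusted p=0.0220) and 0.23 at 18 h (-0.02 to 0.47, limma adjusted p=0.234), or 0.353 without 18 h replicate 3. Leaving out 0 h replicate 1 or 3 raised the adjusted p at 24 h to 0.0786 or 0.0575 in limma, and leaving out 24 h replicate 1, 2 or 3 to 0.0527, 0.0674 or 0.0744. Creld2, an ER-resident disulphide isomerase with EGF-like domains (chr15:88819646-88826683, plus strand), was at 36.9, 43.4 and 40.1 FPKM at 0 h, 42.7, 42.3 and 35.7 after 18 h, and 47.9, 46.5 and 54.1 after 24 h. All 24 h libraries were above the others. The log2 fold-change of Creld2 at 24 h was 0.30 (0.09 to 0.51), with an adjusted p of 0.0675 in limma and 0.0437 in edgeR, and at 18 h it was 0.00 (-0.21 to 0.21, limma adjusted p=0.993).

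**Figure D3:**
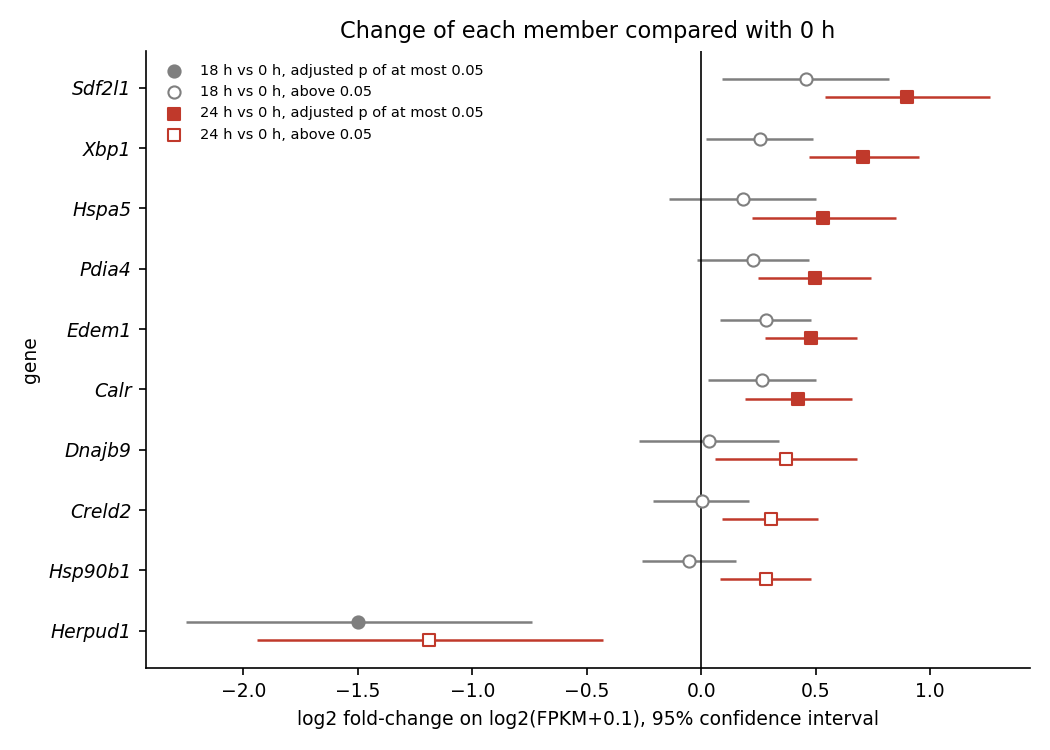
Log2 fold-change on log2(FPKM+0.1) (x axis) of each member (y axis) at 18 h (grey circles) and 24 h (red squares) compared with 0 h, with bars for the 95% confidence interval and filled symbols for a limma adjusted p of at most 0.05. The 6 filled squares lie between 0.42 and 0.90, while Herpud1 lies on the negative side at both times and Hsp90b1 does so slightly at 18 h (-0.06).

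Xbp1 encodes the transcription factor that IRE1 activates, and it is itself a target of ATF6 and XBP1 (chr11:5520659-5525893, plus strand). It was at 14, 15.5 and 16.3 FPKM at 0 h, 20.6, 18.6 and 15.7 after 18 h, and 26, 22.9 and 26.2 after 24 h. All libraries at 24 h were above those of both earlier time points. Its log2 fold-change was 0.71 at 24 h (0.47 to 0.95, limma adjusted p=0.00487), a 1.63-fold rise, and 0.26 at 18 h (0.02 to 0.49, limma adjusted p=0.167), or 0.166 without 18 h replicate 1. The 24 h call held in all 22 alternative fits, with values from 0.63 to 0.77. The log2 fold-change of 0.45 between 18 h and 24 h had an adjusted p of 0.563 in limma and 0.0142 in edgeR with the block.

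The activity of IRE1 is read from the loss of 26 bases from the Xbp1 transcript, which gene-level FPKM values count together with the transcript that keeps them. The stretch is shown because it is what separates the forms. In transcript Xbp1-201 (GENCODE M21, 2129 bases, 5′ to 3′) capitals mark the motifs of the form CNGCAG, within which the cuts fall. Bases 818 to 843 run from after the earlier motif to the end of the later one. The exact bases of the cuts are not marked.
Xbp1-201: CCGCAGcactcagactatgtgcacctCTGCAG
The same letters at the same spacing occur at 1 other place in this transcript, so letters alone do not define the site. The rise of Xbp1 here is therefore one of the summed forms, and splicing was not analysed here.

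Sdf2l1 and Dnajb9 encode partners of BiP, and Edem1 acts in ERAD. Sdf2l1, a component of ER chaperone complexes (chr16:17130138-17132383, minus strand), was at 9.91, 12.6 and 10 FPKM at 0 h, 17.3, 15.9 and 11.9 after 18 h, and 22.3, 16.9 and 21.7 after 24 h. The 24 h libraries were above all 0 h libraries and overlapped 18 h through replicate 2. Its log2 fold-change at 24 h, 0.90 (0.54 to 1.26, limma adjusted p=0.0101), a 1.86-fold rise, was the highest of the members and held in all 22 alternative fits (0.82 to 1.02). At 18 h it was 0.46 (0.09 to 0.82), with an adjusted p of 0.116 in limma and 0.0414 in DESeq2.

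Edem1, the mannosidase-like protein that sends misfolded glycoproteins to ERAD (chr6:108828641-108859356, plus strand), was at 8.20, 9.99 and 9.37 FPKM at 0 h, 10.3, 12.1 and 11.2 after 18 h, and 12.3, 12.9 and 13.2 after 24 h. It was the 1 member whose 18 h libraries were all above those of 0 h, as 14.4% of all genes were. Its 24 h libraries were also all above those of 18 h, against 6.81% of all genes. Edem1 reached a log2 fold-change of 0.48 at 24 h (0.28 to 0.68, limma adjusted p=0.0112), which held in all 22 alternative fits (0.40 to 0.54). At 18 h it was 0.28 (0.08 to 0.48), with an adjusted p of 0.0838 in limma, 0.0125 in limma with the block and 0.0450 in edgeR. Dnajb9, the co-chaperone ERdj4 (chr12:44205559-44210326, minus strand), was the least abundant member, at 6.77, 8.04 and 5.35 FPKM at 0 h, 6.87, 7.31 and 6.25 after 18 h, and 8.72, 9.10 and 8.01 after 24 h. Its 24 h libraries were above those at 18 h and overlapped 0 h, where replicate 2 was above 24 h replicate 3. For Dnajb9 the value at 24 h was 0.37 on the log2 scale (0.06 to 0.68), with an adjusted p of 0.112 in limma, 0.0165 with the block and 0.0347 in limma without 0 h replicate 2 (0.507). Without 0 h replicate 3 it was 0.218 (limma adjusted p=0.225), and without 24 h replicate 2 the limma adjusted p was 0.275. For Dnajb9 at 18 h the value was 0.04 (-0.27 to 0.34, limma adjusted p=0.896).

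Herpud1, a membrane protein with a ubiquitin-like domain that serves the ERAD complex and is known to be reached by both the ATF6/XBP1 and the ATF4 branch, was the member that went down (chr8:94386438-94395377, plus strand). It was at 19.7, 9.14 and 26.5 FPKM at 0 h, 5.49, 7.74 and 4.85 after 18 h, and 6.65, 8.40 and 7.13 after 24 h. All dox libraries were below all 0 h libraries, but the 0 h libraries were spread, and replicate 2 was close to the dox libraries. No overlap in the downward direction at 18 h was found for 13.7% of all genes. For Herpud1 the log2 fold-change came to -1.50 at 18 h (-2.25 to -0.74, limma adjusted p=0.0299), and 0.724% of all genes fell by at least 1 with the same test. At 24 h it was -1.19 (-1.94 to -0.43), with an adjusted p of 0.0520 in limma and 0.0117 in edgeR. The call at 18 h was lost in limma without 0 h replicate 1 or 3 (adjusted p=0.0982 and 0.0705) or without 18 h replicate 1, 2 or 3 (0.0705, 0.0539 and 0.108). Without 0 h replicate 2 the values were -1.93 at 18 h (limma adjusted p=0.00218) and -1.62 at 24 h (0.00377). The antisense gene Gm15890 that overlaps it was listed at 0 FPKM in all libraries.

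Replicate 2 was the lowest 0 h library for Herpud1, and it was also the lowest for 20 of 20 genes on a list of the ATF4 branch. Atf4 itself was at 267, 160 and 258 FPKM at 0 h, at 91.4, 94.4 and 91.4 after 18 h, and at 98.3, 95.1 and 95.2 after 24 h. Chac1, a glutathione-degrading enzyme and ATF4 target, was at 35.4, 5.17 and 36.7 FPKM at 0 h and at or below 1.66 in all dox libraries. For 8 of the other 9 members replicate 2 was instead the highest 0 h library, and for Xbp1 it was the middle one.

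Most ATF4 branch genes were lower with dox at both times. Of the 19 tested, 13 fell and 1 rose (Ddit4, an inhibitor of mTORC1) at 24 h, against 5.11% and 6.52% of all genes, with a median log2 fold-change of -1.21, and at 18 h the counts were also 13 and 1, against 3.72% and 4.27%, with a median of -1.16. The 14 calls at 18 h were 7 without 0 h replicate 1, and 4 and 6 without 18 h replicates 2 and 3. In these fits 1.46%, 1.15% and 1.11% of all genes fell. With only the time points compared there were 5 calls, when 252 of 17951 genes fell. Ddit4 was not among the calls in these fits. The log2 fold-changes at 24 h were -3.98 for Chac1, -2.74 for the pseudokinase gene Trib3, -2.12 for Vldlr, -1.56 for the secreted glycoprotein gene Stc2, -1.49 for asparagine synthetase (Asns) and -1.21 for Atf4, with limma adjusted p between 0.00302 and 0.0170. The calls of Vldlr and Stc2 were lost without 0 h replicate 1 or 24 h replicate 2 or 3 (limma adjusted p of 0.0572 to 0.0632). Ddit4, at 0.97 (limma adjusted p=0.0219), was lost without 0 h replicate 1 or any of the 24 h replicates (0.0515 to 0.0811). Psat1 and Slc3a2, the other most abundant genes of the list, also fell (-1.29 and -0.95). Between 18 h and 24 h, 0 passed in limma, DESeq2 or edgeR, 0 had an unadjusted p under 0.05 and the median was -0.07, whereas that of the 10 members was 0.32. Across the 9 libraries, Pearson's r of Herpud1 with 18 of these genes (mean FPKM of at least 1) had a median of 0.90, from -0.56 (Ddit4) to 0.98 (Ddit3), and its r with the other members ran from -0.70 to -0.17. Pairs of the other 9 members had r from 0.63 to 0.96. These values describe libraries that share time points and replicate numbers.

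**Figure D4:**
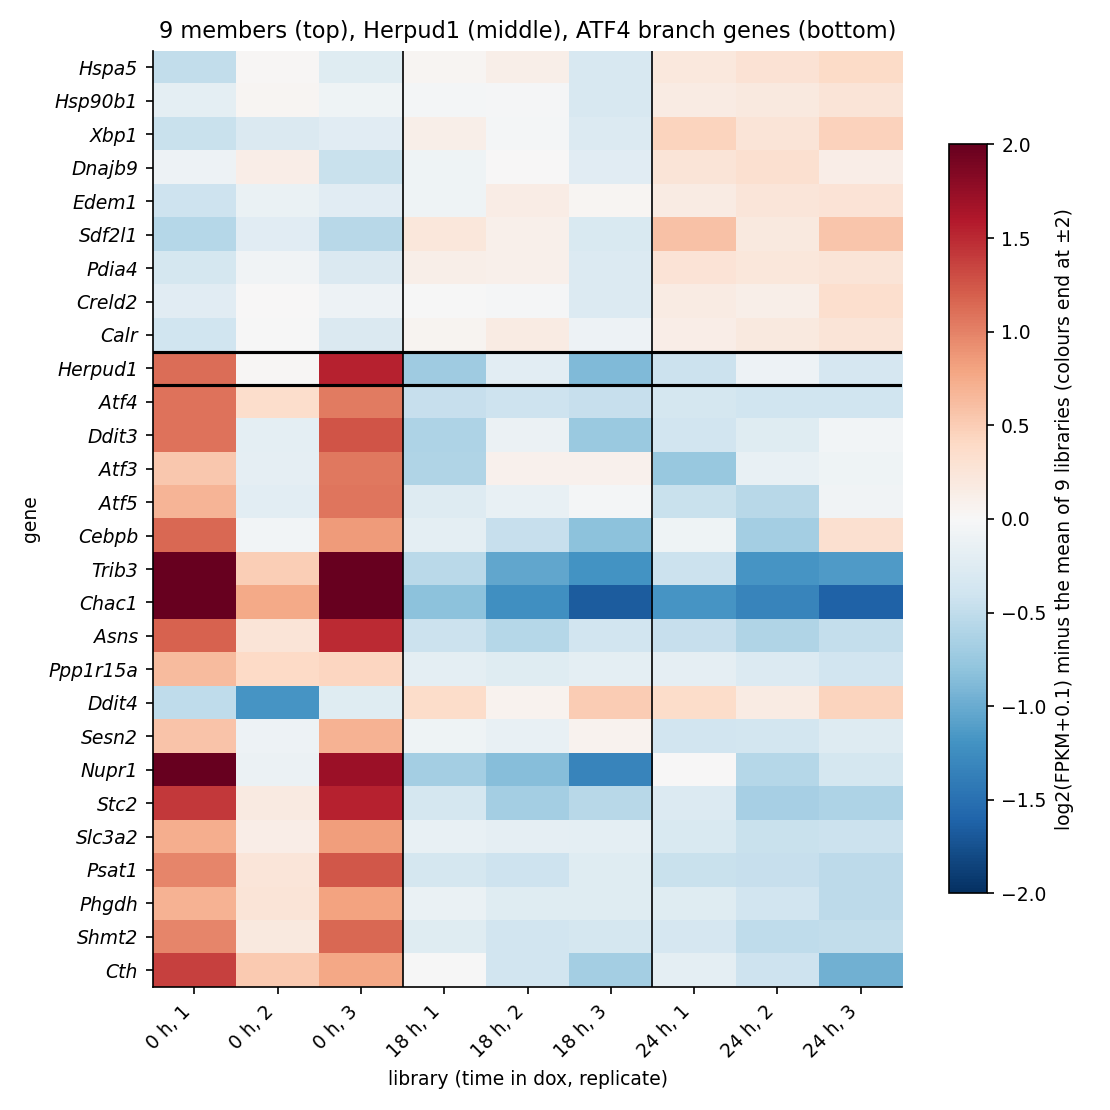
Level of each gene (rows) in each library (columns, by time in dox and replicate) as log2(FPKM+0.1) minus the gene's mean over 9 libraries, red above and blue below, with colours ending at 2 in either direction. The 9 members at the top are reddest at 24 h, and Herpud1 shares with most ATF4 branch genes below it the high 0 h replicates 1 and 3, the lower 0 h replicate 2 and the low dox libraries.

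Other ER folding and ERAD genes were taken from a list of 40 that excluded the members. At 24 h, 12 of the 40 rose and 0 fell (6.52% and 5.11% of all genes did so), with a median log2 fold-change of 0.22, and the value was above 0 in 37 genes, against 50.6% of all genes. At 18 h, 1 rose (Syvn1, the ERAD ubiquitin ligase HRD1) and 1 fell (Sil1, a nucleotide exchange factor of BiP), against 4.27% and 3.72% of all genes, and with the replicate block 10 rose, against 10.8%. Dnajc3, a co-chaperone that restrains PERK, was at 8.16, 9.61 and 9.70 FPKM at 0 h, 9.87, 11.8 and 10.4 after 18 h, and 13.7, 14.9 and 15.3 after 24 h. Its 3 time points did not overlap, though the highest 0 h library (9.70) was close to the lowest at 18 h (9.87). Libraries lay above those of 0 h without overlap for 14.4% of all genes at 18 h and 16.7% at 24 h. From 18 h to 24 h this was so for 6.81%. The log2 fold-change of Dnajc3 at 24 h was 0.67 (limma adjusted p=0.00360). Syvn1 (0.45), the ERAD selenoprotein Selenos (0.42), the translocon-associated Ssr3 (0.40) and the HRD1 partner Sel1l (0.39) followed, with limma adjusted p between 0.0192 and 0.0415. Of the 3 most abundant genes of the list, the disulphide isomerase Pdia3 rose by 0.29 (limma adjusted p=0.0334), P4hb was at 0.23 (0.167) and the lectin chaperone Canx at 0.08 (0.473). The count of 12 depended on single libraries. It was 1 (Dnajc3) without 0 h replicate 1 or 24 h replicate 3, when 3.19% and 2.61% of all genes rose. It was 3 without 24 h replicate 2, against 2.95%. Without 0 h replicate 3 or 18 h replicate 2 or 3 it was 7, against 5.64%, 4.78% and 4.81% of all genes.

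Among 16 sensors and regulators of the response, 15 were tested and 2 rose at 24 h, against 6.52% of all genes, with a median log2 fold-change of 0.00. Creb3l2, an ER-anchored transcription factor, was at 0.737, 0.755 and 0.954 FPKM at 0 h, 1.42, 1.62 and 1.37 after 18 h, and 1.96, 2.30 and 2.44 after 24 h, a log2 fold-change of 1.35 at 24 h (limma adjusted p=0.00121). Eif2ak3, which encodes PERK, was at 3.98, 3.93 and 3.87, then 5.96, 5.71 and 5.47, then 6.19, 6.21 and 5.26 FPKM, a log2 fold-change of 0.57 at 24 h (limma adjusted p=0.00503). The dox libraries of both genes were above all 0 h libraries, as was so for 14.4% of all genes at 18 h and 16.7% at 24 h. Both also rose at 18 h (0.79 and 0.53), against 4.27% of all genes. The genes for the other sensors, named after their values were seen, did not pass in limma. Ern1, which encodes IRE1, was at 0.35 at 24 h (0.10 to 0.61, limma adjusted p=0.0712), with all libraries above those of 0 h. It was called as risen in edgeR (adjusted p=0.0366) and DESeq2 (0.0217), as were 1585 of 15648 and 1685 of 19210 genes. Atf6 was at -0.28 (-0.51 to -0.05, limma adjusted p=0.105). All 24 h libraries of Atf6 were below all 0 h libraries, as was so for 14.6% of all genes. It was called as fallen in edgeR (adjusted p=0.0456), in edgeR with the block (0.00524) and in DESeq2 (0.0288). These fits called 7.76%, 18.8% and 7.41% of their genes as fallen. Of the abundant genes of this list, Rtcb, the ligase that joins the ends of Xbp1, was at -0.04, the protease gene Mbtps1 at -0.07 and Atf6b at 0.21, with limma adjusted p of 0.725, 0.545 and 0.101. With the replicate block 5 genes of the list rose at 24 h in limma, against 13.6% of all genes, Ern1 and Atf6b among them (limma adjusted p=0.0259 and 0.0361).

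**Figure D5:**
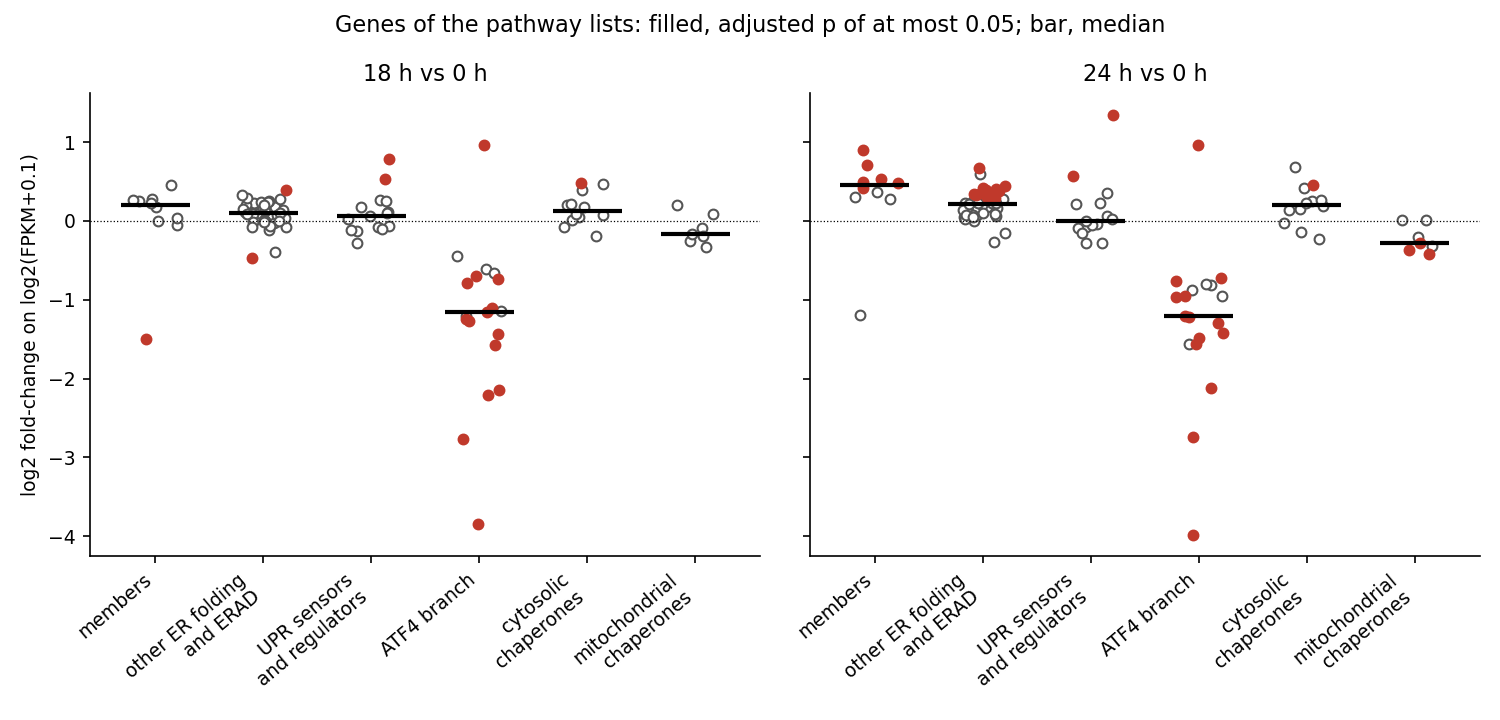
Log2 fold-change on log2(FPKM+0.1) (y axis) at 18 h (left) and 24 h (right) compared with 0 h for each tested gene of 6 lists (x axis), with filled points for a limma adjusted p of at most 0.05 and bars for the median of the list. At 24 h the bars are at 0.45 for the members, 0.22 for other ER genes and -1.21 for the ATF4 branch, and Herpud1 is the low open point among the members.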

How the data were processed

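RNA from mouse ESCs without dox or with dox for 18 h or 24 h (3 replicates each) was sequenced by the authors as stranded mRNA libraries, aligned with STAR to GRCm38 and tested with edgeR 3.16.5 per the labels, with cutadapt 1.9 in the submitters' processing notes. The Ensembl release, the counter and its use of strand are not given in the sources used here. The authors deposited FPKM values for 47729 genes and, for 19210 genes, a signal of CPM per effective library size, from which whole reads were recovered for 100% of values (tolerance 0.01). The deposited log2 fold-changes, p-values and false discovery rates were not used.

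The test was limma 3.58.1 in R 4.3.3 (intensity trend, no block) on log2(FPKM+0.1), fitted to 9 libraries and 17951 genes (mean FPKM at or above 0.1), with Benjamini-Hochberg adjustment and a call at 0.05. A fold-change on this scale understates that of low genes. A p-value sets a difference against the spread between these samples. The main test takes that spread from all 9 libraries, and differences shared by replicate number stay in it. The scripts were tested on simulated data. The alternatives were other pseudocounts, filters and scalings, no trend, only the time points compared, each library left out, a replicate block, and edgeR 4.0.16 and DESeq2 1.42.0 on recovered reads. In the fits with a replicate block, and not in the main test, replicate numbers were taken as pairs. The reason was that deviations from group means correlated in all 9 pairs of libraries of the same number, at 0.211 to 0.548. The 18 other pairs were at -0.399 to 0.11, and both ranges are over 11893 genes.

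Members and lists were chosen with earlier results of these data known. From each list, the text names up to 5 genes per direction with the largest changes that passed at 24 h and the 3 most abundant. Python 3.11.15, pandas 2.3.3 and matplotlib 3.10.9 were used.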

Additional observations from a re-analysis of the deposited data

How the results depend on the processing

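With 3 libraries per time point, 1.22-fold (Hsp90b1) and 1.23-fold (Creld2) differences at 24 h lay close to the threshold, with adjusted p of 0.0743 and 0.0675 in limma, 0.0489 and 0.0437 in edgeR, 0.0527 and 0.0502 in edgeR with no filter, and 0.0235 and 0.0322 in limma after quantile normalization. After median centring their limma adjusted p was 0.189 and 0.146, and with a library left out it reached 0.22 and 0.212. Hsp90b1 passed in 6 and Creld2 in 4 of 22 alternative fits. Calls at 24 h for Xbp1, Sdf2l1 and Edem1 passed in all 22 alternative fits, against 16 for Pdia4, 13 for Calr and 11 for Hspa5. The replicate block ended no call of a member in limma or edgeR. In limma it added Hsp90b1 and Dnajb9 at 24 h and Edem1 at 18 h, and in edgeR Dnajb9 at 24 h, Xbp1, Sdf2l1, Pdia4 and Calr at 18 h, and Xbp1 and Hsp90b1 between 18 h and 24 h. The cause of the differences between settings was not tested. Of the members, 1 passed at 18 h, with 0 without a filter, without the intensity trend or with only the time points compared, 2 with the replicate block or edgeR, 3 with DESeq2, 6 with edgeR and the replicate block, and 0 to 2 with a library left out. At 24 h 6 passed, with 3 without the trend, 10 with edgeR and the block, 0 at a log2 fold-change of 1 or more in size, and 3 to 8 with a library left out. After median centring 4 rose and 1 (Herpud1) fell at 24 h, and after quantile normalization 8 rose and 0 fell. Between 18 h and 24 h 0 passed, with 1 in DESeq2, 2 in edgeR with the block, and 0 to 0 with a library left out. Of the 40 other ER genes 12 passed at 24 h, with 7 without a filter, 6 after median centring, 5 without the trend, 3 with only the time points compared, 19 with the replicate block, 25 with edgeR and the block, 0 at that size, and 1 to 15 with a library left out. Of the sensors and regulators 2 passed, with 5 with the block, edgeR or DESeq2, 7 with edgeR and the block, 1 at that size, and 2 to 3 with a library left out. Of the ATF4 branch genes 14 passed, with 9 at that size and 10 to 19 with a library left out. Of the cytosolic and mitochondrial chaperones 4 passed, with 2 after quantile normalization, 1 without the trend, 0 with only the time points compared or at that size, 10 with the replicate block, 7 with edgeR or DESeq2, 14 with edgeR and the block, and 0 to 5 with a library left out. Values near 0 changed sign and passed in no case. At 18 h, Hsp90b1 was 0.0128 after quantile normalization and -0.111 to 0.0406 with a library left out, Dnajb9 was -0.00109 after median centring and -0.116 to 0.173 with a library left out, and Creld2 was -0.0341 and -0.0566 to 0.0867 in the same settings. At 24 h, quantile normalization and leaving out a library gave 0.0869 and -0.0742 to 0.00551 for Rtcb, 0.0480 and -0.126 to 0.00766 for Mbtps1, and 0.168 and -0.0707 to 0.000478 for Hsp90ab1. Hspd1 was -0.0624 after median centring, -0.00961 in edgeR, -0.0154 in DESeq2, -0.00875 in edgeR with no filter and -0.0872 to 0.182 with a library left out. Over all genes at 24 h, 1171 rose and 917 fell, and after median centring, which moved the median to -0.0728, 839 rose and 1598 fell. With the replicate block 2434 rose and 2243 fell in limma, which is 13.6% and 12.5% of all genes. In edgeR with the block 20.1% and 18.8% of genes did so. Without the block, 1585 rose and 1214 fell of 15648 genes in edgeR, and 1685 and 1423 of 19210 in DESeq2. Higher counts in a list under these fits thus go with more calls over all genes.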

Other observations

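Chaperones outside the ER were looked at with 12 genes of the cytosol and 7 of mitochondria. At 24 h compared with 0 h, 1 cytosolic gene rose, the HSP40 co-chaperone Dnajb1 (log2 fold-change 0.45, limma adjusted p=0.0252), and 0 fell, against 6.52% and 5.11% of all genes, with a median of 0.21. The Dnajb1 call was lost without any of the 24 h replicates (limma adjusted p of 0.0521 to 0.0891). With the replicate block 4 rose, against 13.6% of all genes. The most abundant, Hsp90ab1, Hsp90aa1 and Hspa8, were at -0.03, -0.23 and 0.25 and did not pass in limma without the block, with which Hsp90aa1 fell (limma adjusted p=0.0162). Of the mitochondrial genes 3 fell, against 5.11% of all genes, and 0 rose, with a median of -0.28, and 5 fell with the block, against 12.5% of all genes. Trap1, the mitochondrial HSP90, fell by 0.43 on the log2 scale (limma adjusted p=0.0412), Hspa9, the mitochondrial HSP70, by 0.37 (0.0199), and the protease Lonp1 by 0.28 (0.0308). The count of 3 was 0 without 0 h replicate 1 or 24 h replicate 3, after quantile normalization or with only the time points compared, and it was 1 (Hspa9) without 0 h replicate 3, without 24 h replicate 2 or without the intensity trend. Hspd1 was at 0.01 and passed in no fit, and Hspe1 was at -0.21, with an adjusted p of 0.0888 in limma, 0.0208 in limma with the block and 0.0487 in DESeq2.

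Among 11893 genes whose mean FPKM was 1 or more, those whose levels over the 9 libraries were most like those of Hspa5 were Ing2 (Pearson's r of 0.991), Hyou1 (0.974), Manf (0.963), Alg2 (0.962) and Gm15459 (0.961). For the mean profile of the 10 members they were Manf (0.995), Gm15459 (0.963), Hyou1 (0.960), Ing2 (0.958) and Pdia6 (0.956). Hyou1, Manf and Pdia6 belong to the list of other ER genes, and Manf was at 29.9, 33.8 and 30.3 FPKM at 0 h, 34.8, 36.1 and 30.1 after 18 h, and 40.2, 39.9 and 42.8 after 24 h. Gm15459 shares 86.8% of its 50-base words with Hspa8, so its level is uncertain. The libraries share time points and replicate numbers, so these values are descriptions.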
